A study of Mus musculus with 5 samples.

Results

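The miR-132 and miR-212 cluster is a pair of neighbouring miRNA hairpins, and the arrays carry probes for its 4 mature miRNAs (mmu-miR-132-3p, mmu-miR-132-5p, mmu-miR-212-3p and mmu-miR-212-5p, written below without the species prefix), out of 1122 mouse miRNAs in all. The members were selected on the values of miR-132-3p, which had one of the larger differences towards flagellin in these same arrays, and the other 3 were included by name, as its opposite arm and the 2 arms of its partner. Both 3p arms were detected on all 5 arrays and both 5p arms on none. BMDCs, dendritic cells derived in culture from bone marrow, came from C3H/HeJ mice and were raised with recombinant GM-CSF and IL-4, and CD11c+ cells were purified from the cultures with magnetic beads. Flagellin (FliC), the bacterial protein that TLR5 recognizes, was given at 100 ng/mL for 24 h to the cells of 3 arrays, and medium alone for 24 h to the cells of 2 mock arrays. No label says whether the samples of a group came from separate cultures or animals, so the p-values below measure only the spread between these samples, which may be technical.

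A hairpin precursor is cut into a duplex, of which one strand (the 5p or the 3p arm) is usually kept in the silencing complex while the other is degraded. miR-132 and miR-212 are commonly described as processed from a shared primary transcript whose promoter answers to CREB, and they have been studied mostly in neurons and, for miR-132, as a miRNA induced by innate immune stimuli in myeloid cells. C3H/HeJ mice carry a defective Tlr4, so that their cells respond poorly to lipopolysaccharide.

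The mature sequences show what the members share and what the array can tell apart. All 4 members matched the RefSeq miRNA table of GRCm38.p6, and they are printed 5′ to 3′ on the + strand with the seed (bases 2 to 8) in capitals.
miR-132-3p: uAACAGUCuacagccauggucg
miR-212-3p: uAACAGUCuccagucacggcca
miR-132-5p: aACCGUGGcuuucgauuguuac
miR-212-5p: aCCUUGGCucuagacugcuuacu
The 3p arms have the same seed, AACAGUC, and of the 1679 mature mouse miRNAs in that table they are the 2 that have it, so no further miRNA of the seed family could be listed. They are identical at 17 of 22 positions, the first 9 in a row included, and at 8 of the 13 positions from base 10 onwards. The 5p arms have a seed each that no other entry of the table has.

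Each member has 2 probes, and every probe is printed in 20 spots. The probes of the 3p arms are shown because they read the 3′ portion, where the arms differ. Capitals mark bases that pair with the seed, and each sequence is written 5′ to 3′.
miR-132-3p probe of 16 nt: cgaccatggctgtaGA
miR-132-3p probe of 15 nt: cgaccatggctgtaG
miR-212-3p probe of 14 nt: tggccgtgactgga
miR-212-3p probe of 13 nt: tggccgtgactgg
The miR-132-3p probes cover bases 7 to 22 and 8 to 22 of the miRNA, and the miR-212-3p probes bases 9 to 22 and 10 to 22, so the shared seed was read at 2 bases or fewer. The longest stretch that a miR-132-3p probe shares with a miR-212-3p probe is 4 nt. Against the probes of all other detected mouse miRNAs it is 6 nt for each of the 4 members.

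The array files name the mouse build mm9 and place the longer miR-132-3p probe at chr11:74987231-74987246 and the longer miR-212-3p probe at chr11:74986953-74986966. The longer probes of the 5p arms lie at chr11:74987193-74987209 for miR-132-5p and chr11:74986911-74986927 for miR-212-5p. The mapped intervals of all 8 probes fall within 336 bases. These positions are as the files give them and were not checked against mm9 sequence, and for miR-212-5p the files map its probes of 17 and 18 nt to 16 and 17 bases. In the RefSeq annotation of GRCm38.p6, used for names and order alone, Mir212 and Mir132 follow each other between Hic1 and Ovca2 and overlap no other gene.

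Agilent Feature Extraction gives each miRNA a total gene signal, an intensity summed over those of its probes whose signal exceeds 3 times its own error. Where no probe of a miRNA reaches that limit, the miRNA counts as undetected and is listed at 0.1. The flagellin arrays detected 293, 298 and 292 mouse miRNAs and the medium arrays 317 and 301, with 277 common to all 5. To compare arrays, signals were expressed relative to the array's own 75th percentile over these 277 (281, 293 and 211 for the flagellin arrays, 282 and 246 for the medium arrays) and taken to log2. The lowest percentile belonged to flagellin replicate 3, whose signals were therefore raised most by scaling.

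For miR-132-3p the total gene signal was 41.1, 38.4 and 28.0 after flagellin and 31.5 and 25.3 in medium. Before scaling the groups overlapped, since flagellin replicate 3 lay below medium replicate 1. After scaling, the log2 values were −2.77, −2.93 and −2.91 after flagellin and −3.16 and −3.28 in medium. All 3 flagellin values then lay above both medium values, with a distance of 0.23 between the lowest of the first and the highest of the second. As a description of the miRNA that led to the choice of members, and without a test, the log2 difference was 0.35 (limma standard error 0.091), a ratio of 1.27 between flagellin and medium. At the level of spots, with normexp background correction and quantile normalization, it was 0.15. The group means were −2.87 ± 0.086 (SD, n = 3) and −3.22 ± 0.084 (SD, n = 2). Groups that do not overlap with flagellin higher were found for 35 of the 307 miRNAs tested, 11.4%, and nothing is read from the place of miR-132-3p among them, because it was chosen on this contrast.

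For miR-212-3p, the partner with the same seed, the total gene signal was 90.5, 86.0 and 104 after flagellin and 98.6 and 88.1 in medium. Flagellin replicate 3 was the highest and flagellin replicate 2 the lowest, with both medium arrays between them. On the scaled log2 scale the values were −1.63, −1.77 and −1.02 after flagellin and −1.52 and −1.48 in medium, so the groups overlapped here too, with the medium arrays 0.034 apart and the flagellin arrays spread over 0.74. The log2 difference was 0.023 (limma standard error 0.25, 95% interval −0.63 to 0.68, adjusted p = 0.99), and 1 of the 3 flagellin arrays lay above both medium arrays. As a ratio of flagellin to medium the interval runs from 0.645 to 1.60, and so contains the ratio of 1.27 seen for miR-132-3p as well as no change. Across the 307 tested miRNAs limma gave 2 with an adjusted p under 0.05, 0.651%, and miR-212-3p was not among them. Those 2, miR-5112 and miR-466i-3p, had lower values after flagellin and were undetected on all flagellin arrays. They passed the detection filter through the medium arrays alone. Their flagellin values all stood at the common floor of −6.37, so they had no spread there by construction, and nothing is read from these calls. Of 22 alternatives, 8 kept the call of miR-466i-3p and 3 that of miR-5112. Alternatives restricted to miRNAs detected on all arrays did not hold either miRNA, so neither call could be kept there.

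**Figure D1:**
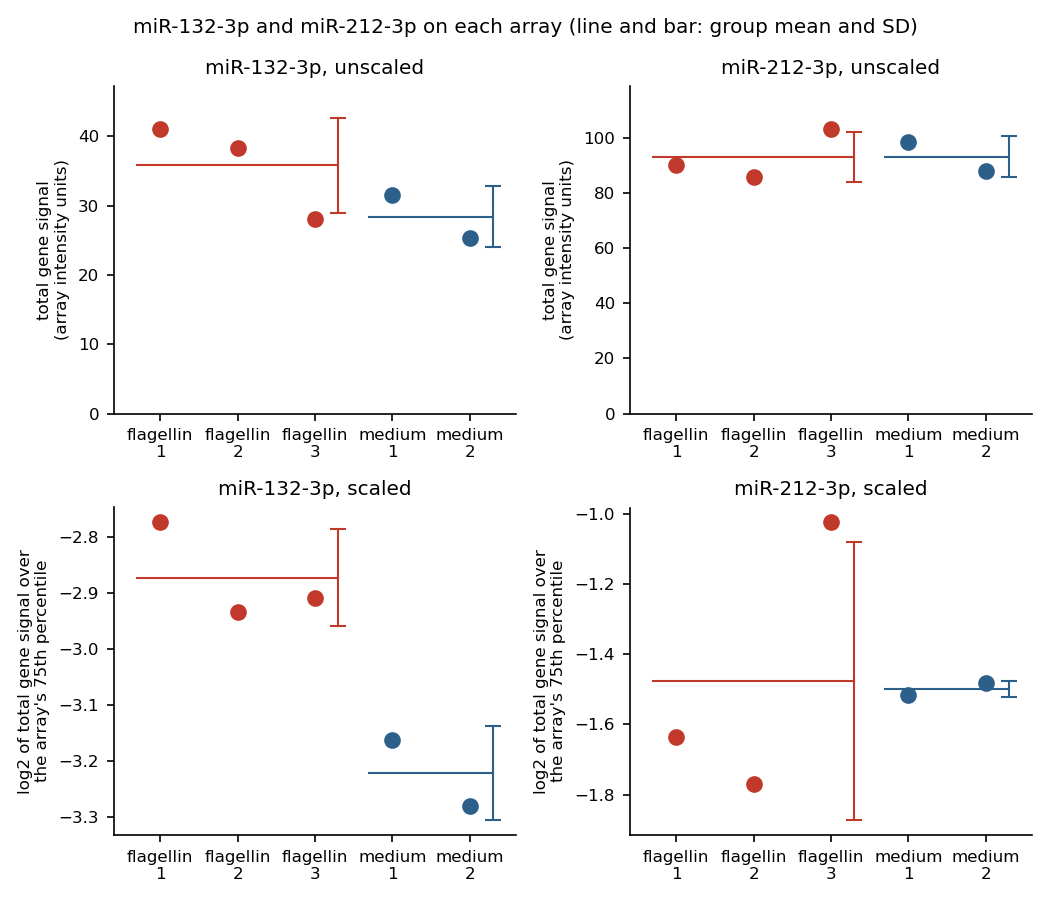
Total gene signal (upper panels, array intensity units) and log2 of the signal over the 75th percentile of the array (lower panels) of miR-132-3p and miR-212-3p on the 3 flagellin (red) and 2 medium (blue) arrays; lines and bars give the group mean and SD. After scaling, the miR-132-3p values with flagellin all lie above both medium values, while the miR-212-3p values with flagellin lie on both sides of the medium values, with replicate 3 at −1.02.

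The difference of miR-212-3p rested on flagellin replicate 3. Without that array the log2 difference was −0.20 (adjusted p = 0.229 in limma's test), and both remaining flagellin values lay below both medium values. Without flagellin replicate 2 the difference was 0.17. For miR-132-3p the difference ranged from 0.29 to 0.41 with each array left out, and it was 0.37 without flagellin replicate 3.

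The ratio of the 3p arms within an array does not involve the scaling, and only its change between arrays is read here, since probes differ in how strongly they bind. On the log2 scale the ratio of miR-132-3p to miR-212-3p was −1.14, −1.16 and −1.88 after flagellin and −1.65 and −1.80 in medium. It was higher on flagellin replicates 1 and 2 than on both medium arrays, and on flagellin replicate 3 it was the lowest of the 5. The group means were −1.40 ± 0.42 (SD, n = 3) and −1.72 ± 0.11 (SD, n = 2), so the difference of 0.33 was smaller than the spread among the flagellin arrays. Because the ratio includes miR-132-3p, on which the members were chosen, it is given without a test.

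All arrays were on 1 slide, and the position on it differed between groups. The medium arrays occupied column 4, flagellin replicate 3 column 3 and the remaining flagellin arrays column 2, so column and treatment cannot be told apart. Each of the 2 rows held both groups. In row 1, with flagellin replicates 1 and 3 and medium replicate 2, the log2 difference was 0.44 for miR-132-3p and 0.15 for miR-212-3p. In row 2, with 1 array of each group, it was 0.23 for miR-132-3p and −0.25 for miR-212-3p. With row as a block the difference was 0.35 for miR-132-3p and −0.021 for miR-212-3p (adjusted p = 0.979 in limma's test), so the sign for miR-212-3p turned.

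Both probes of miR-132-3p passed the detection limit on all 5 arrays. Its probe of 16 nt had signals of 24.9, 24.5 and 17.9 after flagellin and 19.99 and 16.5 in medium. Its probe of 15 nt had signals of 16.2, 13.8 and 10.1 after flagellin and 11.5 and 8.83 in medium. The order of the 5 arrays was the same for both probes, and each overlapped between groups before scaling and had all flagellin values higher after it. After scaling, the log2 difference was 0.32 for the probe of 16 nt and 0.40 for the probe of 15 nt. The error that Feature Extraction attached to these signals was between 11.9% and 20.8% of the signal, and the ratio of 1.27 between the groups is to be read beside errors of that size on single probes.

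Both probes of miR-212-3p also passed on every array, with errors of 10.3% to 13.7% of the signal. The probe of 13 nt gave signals of 20.2, 19.3 and 25.3 after flagellin and 22.4 and 20.9 in medium. The probe of 14 nt gave 70.3, 66.7 and 78.2 after flagellin and 76.3 and 67.2 in medium. On both probes flagellin replicate 3 was the highest array and flagellin replicate 2 the lowest. The scaled signals gave p = 1 for each in two-sided exact permutation tests, also after Benjamini-Hochberg adjustment over the 6 probes of the partner miRNAs, where groups of 3 and 2 arrays cannot give a p below 0.1.

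The 5p arms, the opposite strands of the 2 hairpins, were listed at 0.1 on every array. The signals of the 2 probes of miR-132-5p lay between −1.17 and 0.40, where the detection limit of the same probes lay between 4.39 and 5.36. For miR-212-5p they lay between −1.16 and 0.87, with a limit between 4.39 and 5.38. No signal of these 4 probes reached its limit in any of the 10 pairs of probe and array of each miRNA, and all were within 1 error of 0. No fold is given for either arm, and a difference between flagellin and medium was not detectable at this signal.

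**Figure D2:**
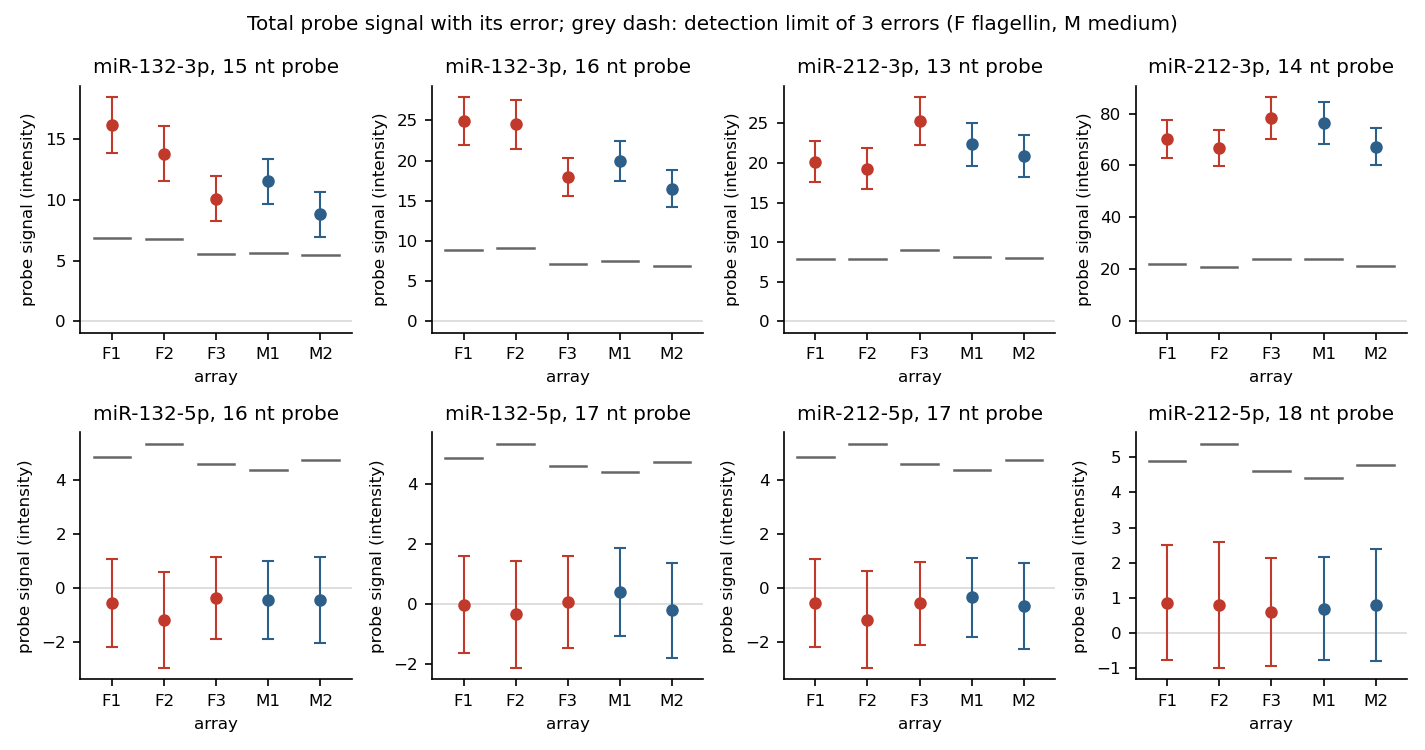
Total probe signal (array intensity units) of the 8 probes on the flagellin (F, red) and medium (M, blue) arrays; bars give the error of the signal and grey dashes the detection limit of 3 errors. The probes of the 3p arms lie above the limit on every array and those of the 5p arms below it.

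Opposite arms seldom could be compared on these arrays. Of 409 hairpins with both arms on the array, 32 had both arms detected on all 5 arrays, 111 (27.1%) had 1 arm detected on all and the other on none, as miR-132 and miR-212 do, and 230 had neither arm detected on any. Among the 40 hairpins with both arms tested, the log2 differences of the arms had the same sign in 24, and the median distance between them was 0.13.

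The high value of miR-212-3p on flagellin replicate 3 was set beside probe length. Its log2 value on that array was 0.68 above the mean of flagellin replicates 1 and 2, whereas for miR-132-3p this distance was −0.056. Among the 69 miRNAs detected on all arrays whose probes average 14 nt or less, the median of this distance was 0.22 (SD 0.31), and among the 208 with longer probes it was −0.023 (SD 0.33). The distance was as large as that of miR-212-3p for 4 of the 69 (itself, miR-466h-3p, miR-574-3p and miR-721) and for 4 of the 208 (miR-191-3p, miR-466a-5p, miR-467f and miR-702), which were named after their values were seen. With each array freed of a linear trend on probe length, an alternative chosen after seeing the data, miR-212-3p had a log2 difference of 0.082 (limma, adjusted p = 0.944) and miR-132-3p one of 0.37. After that correction flagellin replicate 3 was still 0.52 above the mean of flagellin replicates 1 and 2 for miR-212-3p, and it was the highest of the 5 arrays. The cause of this high value was not tested.

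**Figure D3:**
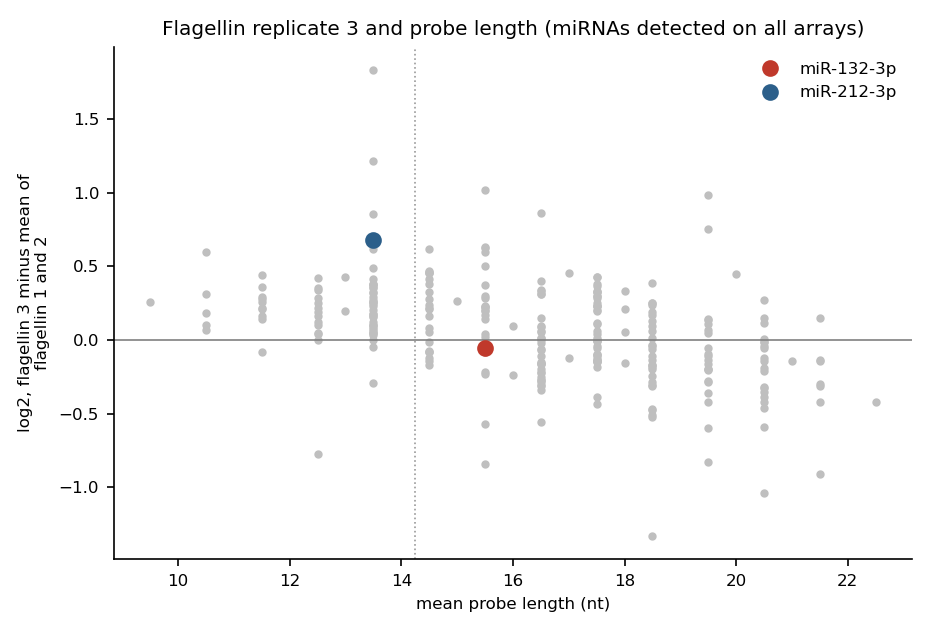
Log2 distance of flagellin replicate 3 from the mean of flagellin replicates 1 and 2 (vertical axis) against mean probe length in nt (horizontal axis) for the 277 miRNAs detected on all arrays (grey), with miR-132-3p in red and miR-212-3p in blue; the dotted line parts probes of up to 14 nt from longer ones. The median of the shorter group is 0.22, miR-212-3p lies at 0.68 and miR-132-3p at −0.056.

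miRNAs that are known to be induced through TLR and NF-κB signalling were set beside the cluster. Of 12 listed arms, 6 were detected on all arrays and tested and the other 6 were detected on none (miR-155-3p, miR-146a-3p, both arms of miR-147 and both arms of miR-9). Of the 6 tested, 0 rose and 0 fell past the limma threshold of an adjusted p of 0.05, and their median log2 difference was 0.069, beside 0.0095 over all 307. All flagellin values were higher for 3 of the 6 (miR-155-5p, miR-146a-5p and miR-21-3p), beside 11.4% of all tested. For miR-155-5p, a widely used mark of myeloid activation, the total gene signal was 835, 788 and 621 after flagellin and 597 and 584 in medium. All flagellin values were the higher ones, and the log2 difference was 0.35 (limma standard error 0.095, adjusted p = 0.65). miR-146a-5p, a feedback regulator of TLR signalling, had signals of 131, 121 and 90.0 after flagellin and 99.6 and 88.6 in medium. Unscaled, flagellin replicate 3 lay between the medium arrays, and scaled, all flagellin values were higher, with a log2 difference of 0.28 (limma standard error 0.086, adjusted p = 0.65). Of the remaining 4, miR-146b-5p had a log2 difference of 0.054, miR-21-5p one of 0.057 and miR-21-3p one of 0.081. The value of 0.017 for miR-146b-3p was set by the common floor of −6.37 given to the lowest scaled values, since 3 of its 5 values (flagellin replicate 3 and both medium arrays) stood at it. Without the floor, an alternative chosen after seeing the data, its difference was 0.13 with all flagellin values higher, and the median of the 6 was 0.11, beside 0.024 over the 277 miRNAs detected on all arrays. Non-overlapping groups then numbered 4 of 6, beside 36 of the 277, 13.0%. No value of miR-132-3p or miR-212-3p was at the floor.

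Beyond the cluster, 3 mature miRNAs have probes on chromosome 11 within 1000000 bases of miR-132-3p. miR-22-3p and miR-22-5p, the arms of a hairpin at a distance of 290046 and 290008 bases, were detected on all arrays, and miR-3971 on none. The log2 difference was 0.12 for miR-22-3p (standard error 0.11) and 0.026 for miR-22-5p (standard error 0.11), the groups overlapped for both, and neither passed the test (adjusted p = 0.859 and 0.966 in limma's test).

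**Figure D4:**
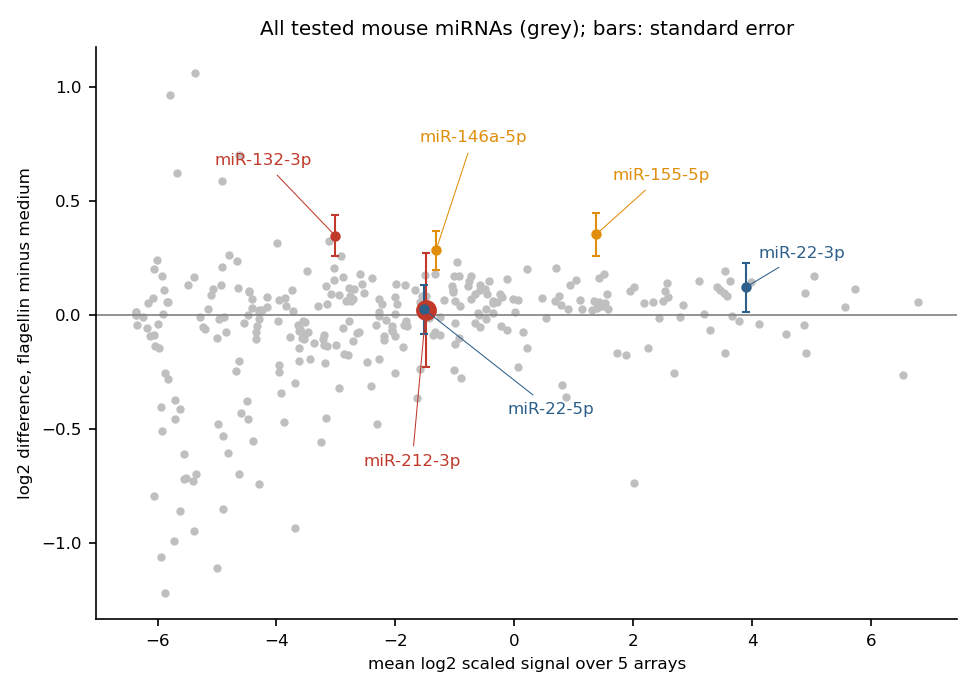
Log2 difference between flagellin and medium (vertical axis) against mean log2 scaled signal over the 5 arrays (horizontal axis) for the 307 tested miRNAs (grey), with the standard error for the detected members (red), 2 TLR-induced miRNAs (orange) and the arms of the nearby miR-22 (blue). miR-132-3p lies at 0.35 and miR-212-3p at 0.023 (larger point, with that of miR-22-5p over it), and the horizontal position reads nothing about abundance between miRNAs.

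The miRNAs whose pattern over the 5 arrays was most like that of miR-132-3p were found by the root mean square difference of log2 values, after centring each miRNA on its own mean. Among 276 miRNAs detected on all arrays, the nearest were miR-146a-5p (0.057), miR-326-3p (0.071), miR-582-3p (0.074), miR-484 (0.085) and miR-192-5p (0.094), beside a median of 0.22. All 5 had every flagellin value above both medium values, as the choice of miR-132-3p as the pattern makes likely. miR-212-3p was in place 222 of 276 by this measure, at 0.32. By Pearson correlation over the 5 arrays, 4 of these 5 were again among the nearest 5, and miR-212-3p was in place 152 with r = −0.029. These figures describe 5 arrays that also enter every other value given here.

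The labelled cell type was set against marker miRNAs. All 5 myeloid and haematopoietic markers (miR-223-3p, miR-142-3p, miR-142-5p, miR-155-5p and miR-146a-5p) were detected on all arrays, with a summed signal of 6560, 7488 and 4624 after flagellin and 6611 and 5593 in medium. They did not move alike, with scaled log2 differences of 0.096, −0.25, 0.029, 0.35 and 0.28 in that order. Both arms of miR-142 had their highest signals, 2272 for the 3p arm and 914 for the 5p arm, on flagellin replicate 2. Of 4 miRNAs typical of neurons, the cells in which the cluster is best known, miR-124-3p and miR-9-5p were detected on no array, while miR-128-3p and miR-138-5p were detected on all. Their summed signal was 77.2, 71.3 and 51.0 after flagellin and 66.4 and 61.1 in medium. miR-150-5p, a marker of B and T cells, was detected on none.

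Flagellin replicate 2 stood apart in markers of other cells. miR-451, an erythroid marker, had signals of 5.29 and 17.0 on flagellin replicates 1 and 2 and was undetected on the other 3 arrays, and miR-144-3p was undetected on all. The endothelial miR-126-3p had signals of 12.6, 29.1 and 5.60 after flagellin and 12.5 and 5.04 in medium, and miR-126-5p was undetected. Of the stromal markers miR-199a-3p had signals of 5.58 and 41.3 on flagellin replicates 1 and 2 and 5.59 on medium replicate 1, and miR-214-3p, miR-143-3p and miR-145-5p were undetected on all arrays. Without flagellin replicate 2 the log2 difference was 0.38 for miR-132-3p and 0.17 for miR-212-3p. The cells had been freed of red blood cells before culture and sorted on CD11c before treatment, and the part of other cells in the values of the cluster was not tested. In RNA from such a sorted population, a different number of cells of one type and a different amount of RNA per cell cannot be told apart.

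The direction of each 3p arm was followed through the scalings. miR-132-3p was higher on average with flagellin under all 7 scalings tried, and all flagellin values were higher in 5 of them, the groups overlapping with no scaling and with scaling on the spike-in controls. For miR-212-3p the groups overlapped under all 7, and the difference turned to −0.0025 with no scaling and −0.013 with spike-in scaling. Scaling by the 75th percentile over all mouse miRNAs moved the median of all tested miRNAs to 0.19, and the differences of 0.53 for miR-132-3p and 0.20 for miR-212-3p under it are to be read against that shift.

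**Figure D5:**
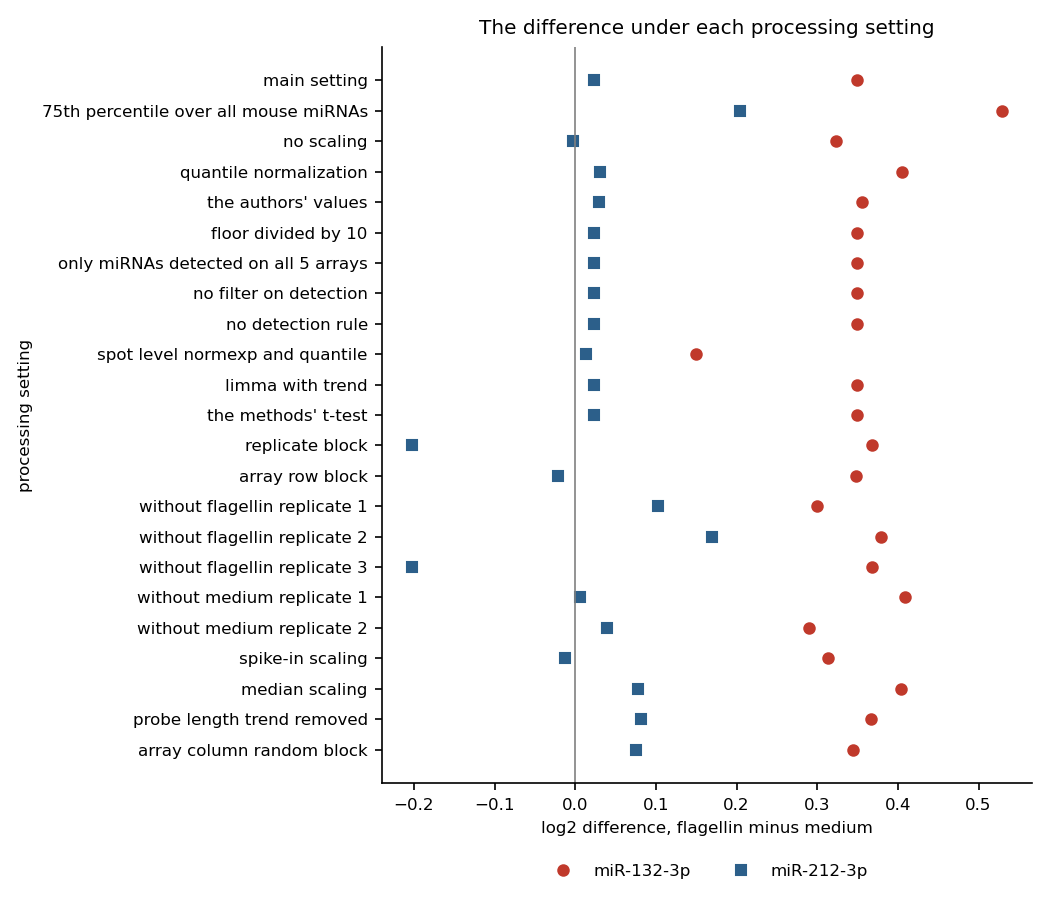
Log2 difference between flagellin and medium (horizontal axis) of miR-132-3p (red circles) and miR-212-3p (blue squares) under the main setting and the 22 alternatives (vertical axis). miR-132-3p stays above 0, between 0.15 and 0.53, and miR-212-3p lies on both sides of 0, between −0.20 and 0.20. Alternatives that changed only the floor, the filter, the detection rule or the test leave both differences where the main setting has them.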

How the data were processed

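miRNA from 5 samples was hybridized to Agilent arrays in a single dye (Cy3). The authors extracted the deposited intensity values with Agilent Feature Extraction (10.7 per the labels, 10.7.3.1 per the file headers). They also deposited a table of log2 values centred per array, used here as an alternative.

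Scaling divided the deposited total gene signals by each array's 75th percentile, computed over the 277 miRNAs that every array detected. Scaled values under 0.0121 (−6.37 in log2) were set to that floor before log2 was taken. No spot was saturated. The 307 miRNAs detected on at least 2 arrays were fitted with limma 3.58.1 in R 4.3.3 (3 residual degrees of freedom, Benjamini-Hochberg adjustment). The fit was tested on simulated data with log2 changes of 1.5 and no floor, where it recovered 94.25% of the changed miRNAs. Those changes are larger than the differences of the members. The simulation therefore does not show what the fit finds at their size or for values at the floor. The number of arrays limits the precision. Probe signals were compared with exact permutation tests in Python 3.11.15 (numpy 2.4.6, pandas 2.3.3, matplotlib 3.10.9).

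The members and lists were chosen with earlier results of these data known. Named miRNAs are the 4 members, the lists of TLR-induced, nearby and same-seed miRNAs, the 5 most like miR-132-3p, every miRNA with an adjusted p under 0.05 and the cell type markers. Those whose distance on flagellin replicate 3 was as large as that of miR-212-3p are named too. Alternatives covered scaling, floor, filter, detection rule, background correction, test, blocks and leaving out each array.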

Additional observations from a re-analysis of the deposited data

How the results depend on the processing

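Under the 22 alternatives, the log2 difference of miR-132-3p kept its direction, and it moved by more than the spread between replicates in 2, to 0.53 with a 75th percentile that counts every mouse miRNA and 0.15 at the level of spots with normexp (offset 50) and quantile normalization. With each array left out it ranged from 0.29 to 0.41. That of miR-212-3p was never past the threshold (adjusted p from 0.229 to 1 in limma's test and the methods' t-test) and reversed to −0.0025 with no scaling, −0.013 with spike-in scaling, −0.021 with array row as a block and −0.20 with the replicate block, and ranged from −0.20 to 0.17 with each array left out. Its probe of 13 nt reversed from 0.014 to −0.012 without scaling. The median of the 6 listed TLR-induced miRNAs moved from 0.069 to 0.11 without the floor, where 3 values of miR-146b-3p had stood. The other causes were not tested.

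In limma's test 2 miRNAs had an adjusted p under 0.05, and 18 an unadjusted one. The adjusted count was 0 with that percentile (14 unadjusted), no scaling (8), quantile normalization (17), no detection rule (17), spot level values (23), the replicate block (39), the row block (15) and spike-in scaling (8). It was 4 with the authors' values and with the floor divided by 10 (miR-193-5p and miR-3091-5p in addition), and 1, miR-466i-3p, with no filter, with limma's trend and with a random block for array column. It was also 1, miR-135a-1-3p, after removing the trend on probe length and with miRNAs detected on all arrays. It was 3 with median scaling (miR-135a-1-3p in addition) and 2 with the methods' t-test after Benjamini-Hochberg adjustment (miR-466i-3p and miR-483-5p). At the methods' own thresholds, an unadjusted p under 0.05 and more than a 2-fold change, the methods' t-test gave 2 lower (miR-3091-5p and miR-466i-3p) and 0 higher. It was run here on the scaled values with the common floor, not on the authors' values. At that floor miR-193-5p had no difference, and miR-5112 had one of −0.79, short of 2-fold. The count is therefore not one for the authors' values. With each flagellin array left out, the adjusted count in limma's test was 0, except for 1, miR-466i-3p, without flagellin replicate 3. The unadjusted count was then 71. These miRNAs were named after their values were seen. Scaling on spike-ins or the median, leaving out the floor, the length trend and the column block were chosen after seeing the data.

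The replicate number is shared by the groups for 2 numbers alone, and deviations of same-numbered arrays correlated at −0.043 and −0.076 over miRNAs, so the numbers were not taken to pair samples. Flagellin replicate 3 has no partner, and the block gives the same difference as leaving it out. Where a lone medium array was left, its spread was taken to equal that of the flagellin arrays. The 5p arms had no value above the detection limit and so no difference to recompute.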
